A study of Homo sapiens with 6 samples.

Results

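The comparison is between clone 1 and clone 2 of a rescue line of H1 human embryonic stem cells, an established pluripotent cell line. Its members are 4 of the 6 libraries of the study, chosen by label: each clone without and with doxycycline (dox). Every cell carried a dox-inducible short hairpin RNA (shRNA) against EXOSC3, and both clones also carried EXOSC3r, a hairpin-resistant EXOSC3 transgene. The other 2 libraries came from cells with the same shRNA and an empty vector, named PB, without and with dox, and are given only beside the clones. All cells were at passages 40 to 60 per the labels. Each combination of clone and dox state had 1 library, so a value within a state has no replicate error. Each group stands for 1 clone, whose isolation is not described in the sources used here.

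The RNA exosome trims and degrades RNA from the 3' end, and EXOSC3 encodes a subunit of its RNA-binding cap. Clones made with the same construct may differ in where and how strongly the transgene is expressed, and a difference between them is the background against which a rescue is read. Much of the human genome consists of transposable elements, and their RNA comes both from their own promoters and from copies lying inside other transcripts. In pluripotent human cells the endogenous retrovirus HERVH, driven by its LTR7 long terminal repeats (LTRs), is known for high transcription. A consensus sequence stands for many genomic copies, so a repeat has no single position here.

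The RNA was total RNA depleted of ribosomal RNA, and an estimated count was given for each of 1047 sequences. These were 1 transcript each of ACTB and GAPDH and 1045 others, most with names of repeat consensus sequences. Of the 1045, 50 matched no pattern of repeat names, among them HSFAU and UHG. In these 4 libraries 789 of the 1047 had any count. The assigned counts summed to 4620771 in clone 1 without dox, 5260196 in clone 1 with dox, 3941987 in clone 2 without dox and 3745262 in clone 2 with dox. They leave out every read that matched none of these sequences. The clones' libraries differed by a chi-square per degree of freedom of 67.3 without dox and 323 with dox, against 102 between the dox states of clone 1 and 21.4 between those of clone 2, where sampling noise alone gives 1. Clone 1 with dox stood farthest from the others. EXOSC3 and protein-coding markers of the cell type were not analysed here, so neither the knockdown, the rescue nor the cell identity was checked on genes.

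The first question was how the shares of the most abundant sequences differed. Alu, the primate short interspersed repeat derived from the 7SL RNA gene, took 45.4% of assigned counts in clone 1 without dox (95% Clopper-Pearson interval 45.4% to 45.5%) and 52.5% with dox (52.5% to 52.6%). In clone 2 it took 41.8% without dox (41.8% to 41.9%) and 40.1% with dox (40.1% to 40.2%). Both clone 1 libraries lay above both clone 2 libraries, and the gap was 3.59 percentage points without dox and 12.4 with dox. The intervals cover counting error only. In such bulk samples fewer cells of a type and less RNA per cell cannot be told apart.

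ACTB, which encodes cytoplasmic beta-actin (GRCh38.p14, chromosome 7, 5527148 to 5530601), took 6.55% of counts in clone 1 without dox and 6.47% with dox. Its share was 5.47% and 5.17% in clone 2, so the gap was 1.08 points without and 1.30 points with dox. GAPDH, a glycolytic enzyme gene (chromosome 12, 6534517 to 6538371), took 10.4% and 9.69% in clone 1 against 8.86% and 8.93% in clone 2. That gap was 1.58 points without and 0.766 points with dox. The widest 95% interval among these 8 shares spanned 0.0578 points. For all 3 sequences the clones did not overlap. After the scaling used below, clone 1 lay above clone 2 without overlap in 29.5% of the sequences with a mean of at least 100 counts. The exact two-sided permutation test of 2 libraries against 2, which does not keep the pairing by dox state, gave p = 0.333, the smallest it can give. In PB cells Alu took 37.3% and 33.0%, ACTB 4.82% and 5.10%, and GAPDH 8.57% and 7.54% without and with dox. All 3 shares in PB cells were below those of both clones in each dox state.

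**Figure D1:**
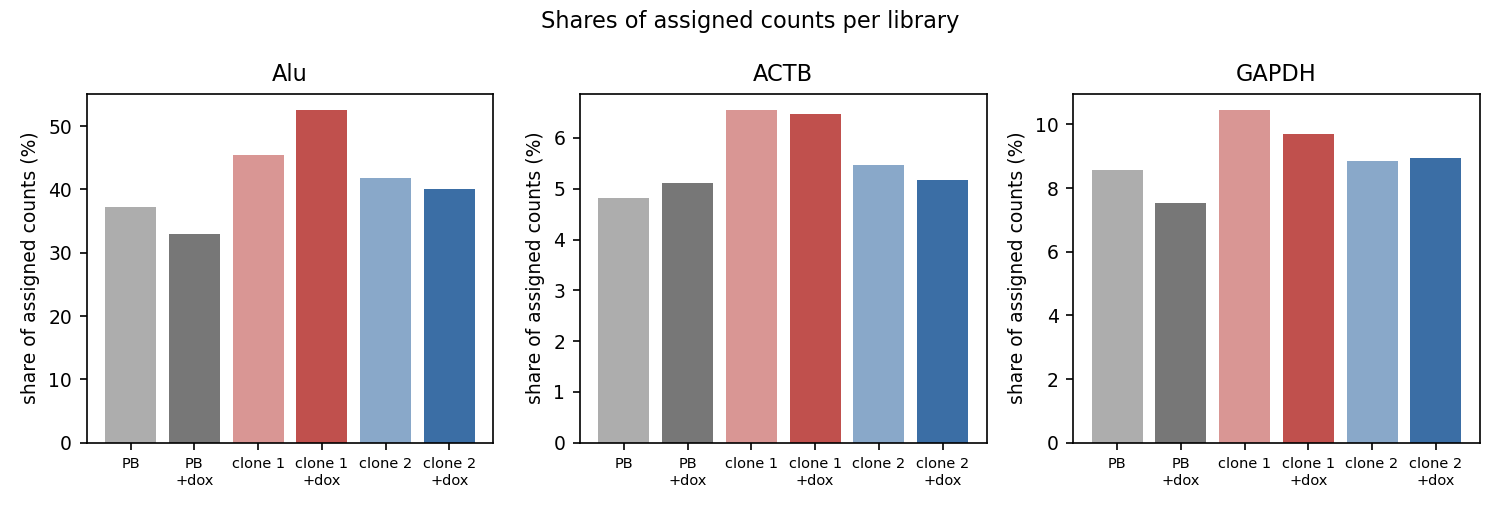
Share of assigned counts in percent (bars from 0) for Alu, ACTB and GAPDH in each of the 6 libraries, pale without and dark with dox, with no error bar since there was 1 library per bar. Clone 1 was above clone 2 in each panel, and its Alu share was 45.4% without and 52.5% with dox where that of clone 2 went from 41.8% to 40.1%.

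Alu, ACTB and GAPDH together took 62.4% and 68.7% of counts in clone 1 and 56.2% and 54.2% in clone 2, so the other sequences shared a smaller remainder in clone 1. Ratios between sequences do not depend on that remainder. There were 435 Alu counts per 100 GAPDH counts in clone 1 without dox and 542 with dox, against 472 and 449.5 in clone 2. The clones overlapped in this ratio, and its order was opposite in the dox states. As a share of TPM, which divides by effective length, the mean Alu gap was 3.88 points and the mean ACTB gap 0.0575 points. On that scale Alu took 83.3% to 89.3% in the clones and ACTB 0.872% to 1.01%, so points do not compare between the scales. By counts the ACTB share of clone 1 was 1.20 times that of clone 2 without dox and 1.25 times with dox. By TPM it was 1.11 and 1.02 times. The GAPDH gap on that scale was 0.181 points without dox and -0.232 points with dox, a mean of -0.025, so its sign turned between the states. The difference between a sequence's length and its effective length, which follows the length of the sequenced fragments, was 160.4 bases in clone 1 without dox and 163.1 with dox, against 155.9 and 159.4 in clone 2. It did not overlap between the clones, and its part in the Alu difference was not tested.

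To compare all sequences, counts were scaled by TMM, which sets the bulk of sequences equal between libraries, and given as CPM, counts on a common library size. Those reaching 10 counts in 1 or more of the 4 libraries, 688 in all, entered the test. The edgeR quasi-likelihood test with dox state as a block and Benjamini-Hochberg adjustment at 0.05 found 10 sequences higher in clone 1 (1.45% of those tested) and 3 lower (0.436%). At an unadjusted p under 0.05 there were 108 (15.7%). The test has 1 residual degree of freedom, and edgeR draws the spread of each sequence toward that of the others (prior degrees of freedom 4.16). It thus sets the clone difference against unevenness over the dox states, largely pooled over sequences, and not against separate cultures. All log2 differences are clone 1 minus clone 2 and on the TMM scale, unless said otherwise. On that scale the median sequence had a fitted value of 0.02, which was not subtracted. Scaling to total counts moved that median by -0.39 and scaling to ACTB plus GAPDH by -0.61, so on those scales the smaller positive differences lie below 0.

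The 10 higher sequences fell into 3 kinds: ACTB, GAPDH, HSFAU and UHG, which are not classed as repeats by name, then retroviral sequences, and L2. ACTB stood at 69152 and 80407 CPM in clone 1 without and with dox, and at 49717 and 43311 CPM in clone 2 (log2 difference 0.68 ± 0.10, SE, adjusted p = 0.047). For GAPDH the levels were 110314 and 120515 CPM against 80625 and 74767 CPM (0.57 ± 0.06, adjusted p = 0.032). HSFAU had 4293 and 5170 CPM in clone 1 and 3007 and 2754 CPM in clone 2 (0.71 ± 0.09, adjusted p = 0.044). In all 3 the clones did not overlap, which held for 29.5% of the sequences with a mean of 100 counts or more. On the TMM scale the gap of each was wider with dox than without. For GAPDH this depended on the scale, since its gap as a share of counts was 1.58 points without and 0.766 points with dox. Over the alternative settings the difference relative to the median sequence lay between 0.51 and 0.83 for ACTB and between 0.40 and 0.71 for GAPDH. Without that reference, the GAPDH difference was -0.04 when scaled to ACTB plus GAPDH, a scale that GAPDH itself largely sets, so a small value is built in.

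UHG was close to GAPDH in its pattern, with 2213 and 2509 CPM in clone 1 and 1623 and 1534 CPM in clone 2 (0.58 ± 0.07, adjusted p = 0.038). Per 100 GAPDH counts there were 2.01 and 2.08 UHG counts in clone 1 and 2.01 and 2.05 in clone 2, a log2 difference of -0.01 without and 0.02 with dox. Alu had a fitted difference of similar size to these (0.65 ± 0.14), but its difference was 0.33 without and 0.96 with dox, and it did not pass (adjusted p = 0.131).

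Among retroviral names, HERVFH19I, an internal sequence of the HERVFH19 group, had 177 and 174 CPM in clone 1 without and with dox and 110 and 114 CPM in clone 2. Its fitted difference was 0.65 ± 0.07 (adjusted p = 0.032), and its dox states were alike, at 0.69 and 0.61. LTR3A had 267 and 210 CPM in clone 1 against 188 and 165 CPM in clone 2 (0.43 ± 0.06, adjusted p = 0.047). HARLEQUINLTR, an LTR named after the Harlequin retrovirus, had 1216 and 1093 CPM against 996 and 853 CPM (0.32 ± 0.04, adjusted p = 0.038). The clones did not overlap in any of these 3, as in 29.5% of the sequences with a mean of 100 counts or more. The Harlequin internal sequence itself had a difference of 0.07 ± 0.04 (adjusted p = 0.418), so it did not pass.

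**Figure D2:**
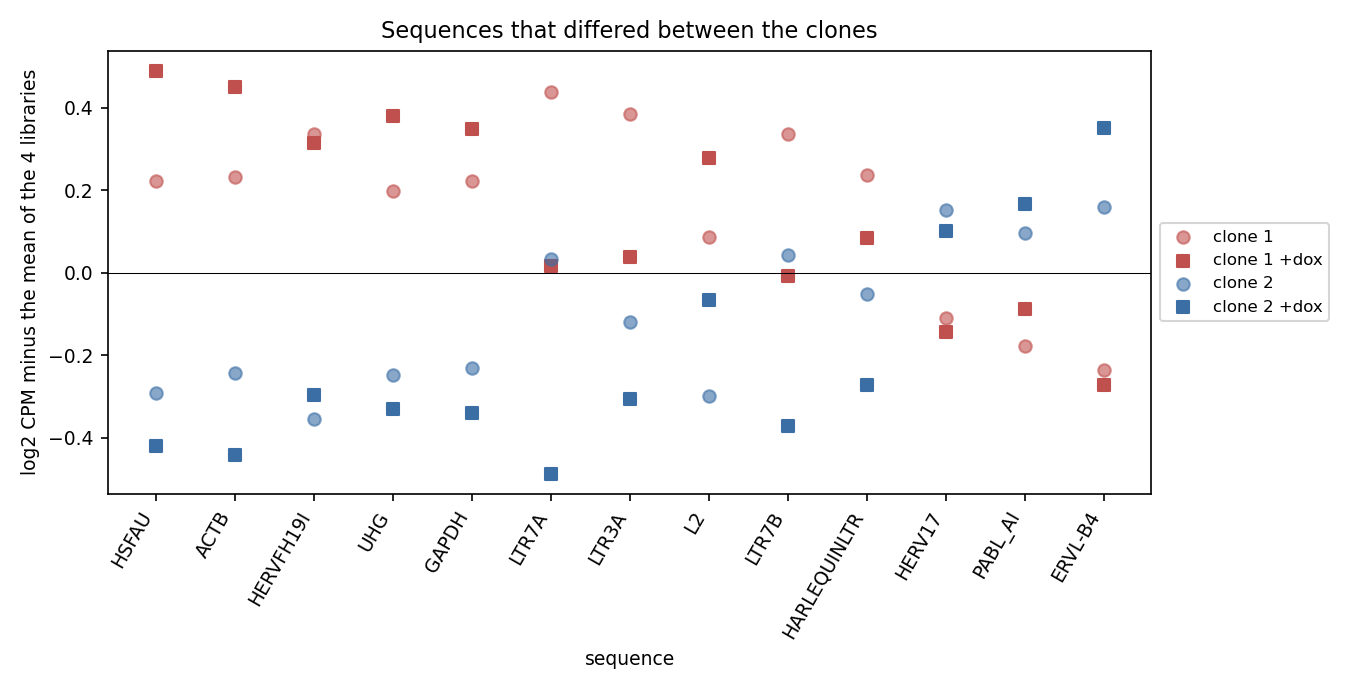
For each of the 13 sequences that differed between the clones, the log2 CPM of each of the 4 clone libraries minus their mean, as circles without and squares with dox. Clone 1 lay above clone 2 in both dox states for the 10 sequences from HSFAU to HARLEQUINLTR and below it for HERV17, PABL_AI and ERVL-B4.

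Of the 4 LTR7 names, LTR7A and LTR7B were higher in clone 1, while HERVH, the retrovirus they flank, did not pass. HERVH stood at 25437 CPM without and 18973 CPM with dox in clone 1 and at 26002 and 19323 CPM in clone 2 (-0.03 ± 0.03, adjusted p = 0.723). LTR7A stood at 9118 and 6808 CPM in clone 1 and at 6888 and 4802 CPM in clone 2, a difference of 0.45 ± 0.04 (adjusted p = 0.032). Without dox LTR7A was higher than with dox in each clone, so the clones overlapped over the states while clone 1 was higher within each state.

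LTR7B had 3894 and 3069 CPM in clone 1 against 3175 and 2384 CPM in clone 2 (0.33 ± 0.04, adjusted p = 0.038). The differences of LTR7C (0.36 ± 0.10, adjusted p = 0.184) and LTR7Y (0.14 ± 0.04, adjusted p = 0.149) were of the same sign and did not pass. Of the 5 HERVH and LTR7 names, 2 were thus higher and 0 lower, against 1.45% and 0.436% of all sequences, and the median difference was 0.33, against 0.02 over all 688. The names share reads by estimation. Summing the LTR7 names, an alternative chosen after seeing the data, gave 0.32 ± 0.04 (adjusted p = 0.048) for the family as a whole.

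Within a library, the ratio of LTR7A to HERVH counts needs no scaling. There were 35.8 LTR7A counts per 100 HERVH counts in clone 1 without dox and 35.9 with dox, against 26.5 and 24.8 in clone 2. In PB cells there were 24.9 and 17.6. Clone 1 was therefore above the other 4 libraries in this ratio in both of its dox states. LTR7B followed the same order, with 15.3 and 16.2 per 100 HERVH counts in clone 1, 12.2 and 12.3 in clone 2, and 11.9 and 7.17 in PB cells.

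HERVK (HML-2), the youngest group of human endogenous retroviruses, and its LTR5_Hs differed in opposite directions in the dox states. HERVK had 4659 CPM in clone 1 without dox against 5941 CPM in clone 2, a log2 difference of -0.35. With dox it had 7373 CPM in clone 1 against 3830 CPM in clone 2, a difference of 0.94. Within clone 1 it was thus higher with dox than without (0.66), and within clone 2 it was lower (-0.63).

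LTR5_Hs had the same pattern at 1239 and 1838 CPM in clone 1 against 1433 and 1095 CPM in clone 2. Its clone difference was -0.21 without and 0.75 with dox. The older LTR5A, LTR5B and LTR5 had differences between -0.19 and 0.10 in either state. None of the 5 names passed in the fit, which asks for a difference common to both states (HERVK 0.30 ± 0.29, adjusted p = 0.667; LTR5_Hs 0.27 ± 0.22, adjusted p = 0.586). Whether the dox states differ in the clone difference could not be tested with 1 library per clone and state.

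**Figure D3:**
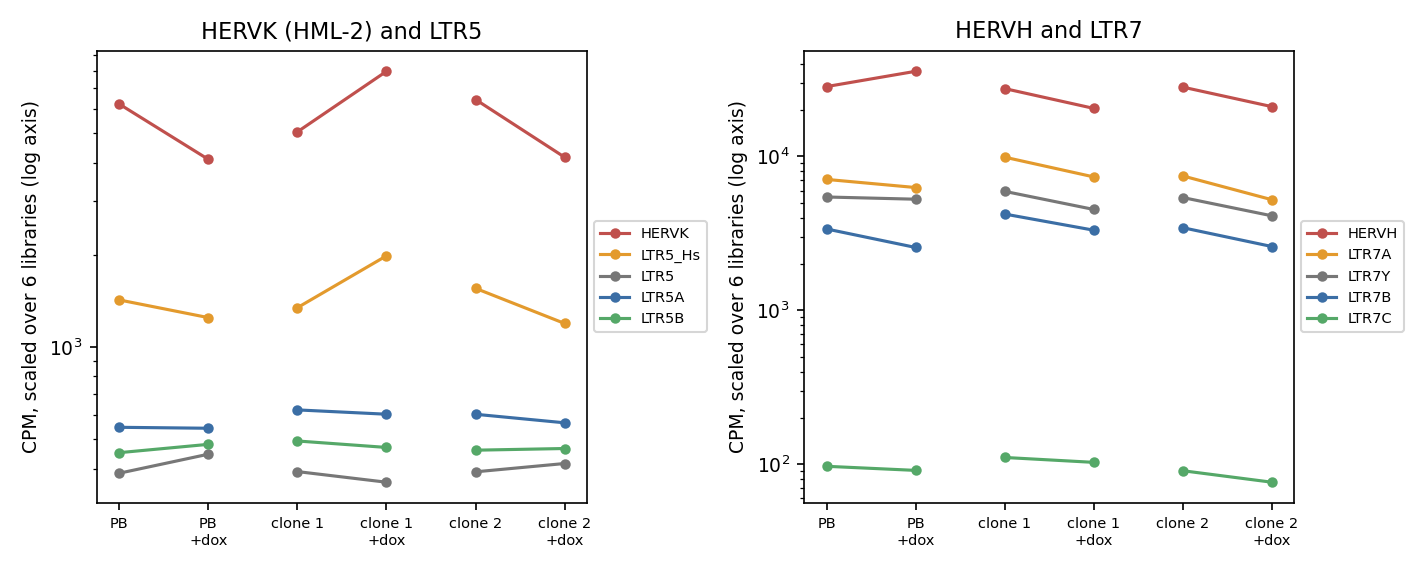
Level in CPM on a log axis, scaled over all 6 libraries, of the HERVK and LTR5 names (left) and the HERVH and LTR7 names (right), with a line joining the library without dox to that with dox of the same line. HERVK and LTR5_Hs were higher with dox in clone 1 and lower with dox in clone 2 and PB, and LTR7A and LTR7B were higher in clone 1 than in clone 2 within each dox state.

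Among old, mammal-wide elements L2 was higher in clone 1. L2, an ancient long interspersed element, had 660 and 753 CPM in clone 1 without and with dox and 506 and 594 CPM in clone 2. Its difference was 0.36 ± 0.04 (adjusted p = 0.032) and was even over the states, at 0.38 and 0.34. MIR3, an old short interspersed element, had 67.6 and 74.4 CPM in clone 1 against 47.8 and 42.5 CPM in clone 2 (0.65 ± 0.14, adjusted p = 0.126).

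MIR (0.25 ± 0.06) and MIRc (0.37 ± 0.10) had the same sign and did not pass (adjusted p = 0.153 for each). MIRb had the opposite sign, with 3.16 and 14.2 estimated counts in clone 1 and 57.03 and 55.06 in clone 2. Its difference of -2.71 ± 0.54 was the largest of the list in size and did not pass in the reported fit (edgeR, adjusted p = 0.110), but passed in 9 of 14 alternatives, where the adjusted p lay between 1.6e-15 and 0.217 over all 14. Its near relatives share its reads, and the summed MIR names had 0.22 ± 0.06 (adjusted p = 0.167). Of the 8 old non-LTR names tested, 1 was higher and 0 lower, against 1.45% and 0.436% of all 688 sequences. Their median difference was 0.37, against 0.02 over all.

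The 3 sequences lower in clone 1 were all internal sequences of endogenous retroviruses. ERVL-B4 had 256 and 249 CPM in clone 1 and 336 and 384 CPM in clone 2 (-0.51 ± 0.06, adjusted p = 0.038). PABL_AI had 438 and 466 CPM against 529 and 555 CPM (-0.26 ± 0.04, adjusted p = 0.047). HERV17, the retrovirus group that includes the syncytin-1 locus, had 1491 and 1457 CPM against 1789 and 1726 CPM (-0.25 ± 0.04, adjusted p = 0.047). In each of them both clone 1 libraries were below both clone 2 libraries, as in 22% of the sequences with a mean of 100 counts or more.

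A fixed rule of size asked next which sequences differed the same way in both dox states: a difference of at least 0.5 on the log2 scale (1.41-fold), of 1 sign, in each state. It carries no test. Of the 431 sequences with a mean of at least 100 counts, 5 were higher in clone 1 (1.16%) and 2 lower (0.464%). The 5 were HERVFH19I, HSFAU, HERV46I, LTR77 and MIR3, and the 2 were ALRa and MER57B2. Of the 5, only HERVFH19I and HSFAU also passed the edgeR test.

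Just inside the rule was MIR3, whose smaller difference was 0.50, and just outside were HERVL_40 (0.49), ACTB (0.48) and GAPDH (0.45). On the lower side MER57B2 (-0.54) was just inside and ERVL-B4 (-0.39) just outside. HERV46I, a retroviral internal sequence, had 234 and 155 counts in clone 1 without and with dox against 123 and 104 in clone 2 (0.91 and 0.65). LTR77 had 157 and 144 counts against 102 and 95 (0.61 and 0.68). MER57B2, an LTR, had 155 and 133 estimated counts against 224 and 221. Over all 688 tested sequences the rule named 15 higher (2.18%) and 18 lower (2.62%), most of them on few counts.

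Without dox 16 of the 431 (3.71%) differed by at least 0.5 in either direction, and with dox 34 (7.89%). The sign was the same in both states for 299 (69.4%), of which 169 were higher in clone 1 (39.2%) and 130 lower (30.2%). Libraries of the clones did not overlap for 127 sequences higher (29.5%) and 95 lower (22%) in clone 1. Across the 431 sequences the Pearson correlation of the state without dox and the state with dox was 0.19 and the Spearman correlation 0.44. For the 176 whose mean reached 1000 counts they were 0.62 and 0.67. Sequences are not independent, and the libraries share their scaling.

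**Figure D4:**
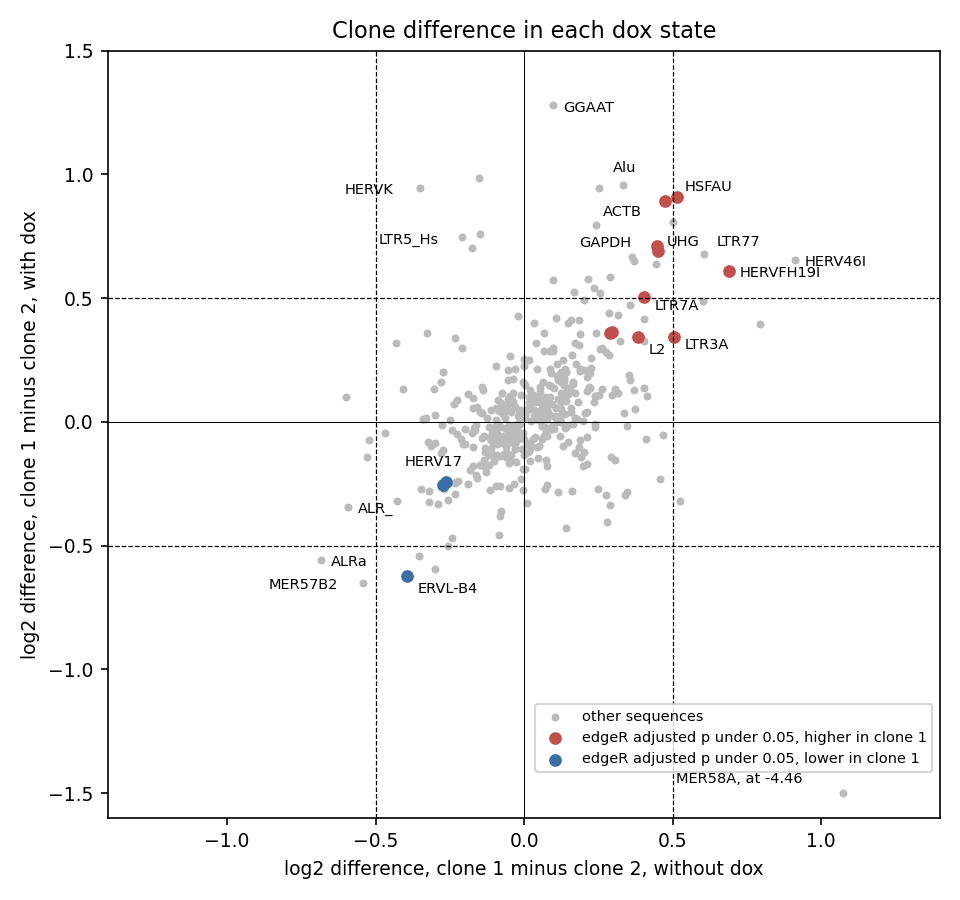
Log2 difference between the clones without dox (x axis) and with dox (y axis) for the 431 sequences with a mean of at least 100 counts, with dashed lines at 0.5 and -0.5. Coloured points passed the edgeR test, MER58A is drawn at the lower edge because its value with dox was -4.46, and HERVK and LTR5_Hs lie at the upper left, where the signs are opposite.

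No L1 element, the long interspersed repeats that include the active human transposons, passed the test in either direction. L1HS, the youngest of them, had 48467 and 49240 CPM in clone 1 and 51780 and 49663 CPM in clone 2 (-0.05 ± 0.04, adjusted p = 0.523). Of the 10 young L1 names, 0 passed, 8 were lower in clone 1 in both dox states and 0 were higher in both, with differences between -0.16 and 0.01. Of the 28 older primate L1 names, 0 passed, 20 were lower in both states and 1 higher in both, with a median of -0.07. Over all 688 sequences 29.5% were lower in both states and 33.4% higher in both.

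Satellites are the tandem repeats of centromeres and heterochromatin. Of 18 tested, 0 passed and the median was -0.10, while 8 were lower in clone 1 in both states and 2 higher in both. ALR_, an alpha satellite sequence, had 168 and 248 CPM in clone 1 without and with dox against 254 and 315 CPM in clone 2 (-0.46 ± 0.07, adjusted p = 0.053). Both clone 1 libraries were below both clone 2 libraries, as in 22% of the sequences with a mean of 100 counts or more. Clone 1 with dox was close under clone 2 without dox.

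ALRa had 67.1 and 95.1 estimated counts in clone 1 against 107 and 148 in clone 2 (-0.62 ± 0.16, adjusted p = 0.153). ALR (-0.15 ± 0.08) and ALR1 (-0.18 ± 0.09) had smaller differences, and ALR2 and ALRb differed in sign between the states. Summed, the alpha satellite names had 432 and 711 CPM in clone 1 against 531 and 861 CPM in clone 2. In the edgeR fit with summed names, an alternative chosen after seeing the data, their difference was -0.29 ± 0.04 and passed (adjusted p = 0.048). No single alpha satellite name passed in the reported fit. MER22 (-0.02 ± 0.07) and 6kbHsap (-0.01 ± 0.04) had differences near 0, and ACRO1 fell under the count filter.

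SVA elements are composite primate repeats. SVA2 had 116 and 131 CPM in clone 1 against 94.6 and 87.2 CPM in clone 2 (0.44 ± 0.11, adjusted p = 0.131), whereas SVA_A differed by 0.08 ± 0.04 (adjusted p = 0.343). The 7 HERV9 and LTR12 names had a median of 0.14 and 0 passed; HERV9 had 0.20 ± 0.05 (adjusted p = 0.165) and LTR12C 0.18 ± 0.04 (adjusted p = 0.131). The 4 HUERS-P names lay between 0.02 and 0.18, and 0 passed.

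ERVL, a family of old retroviruses, had 21 names tested with 1 lower and 0 higher, against 0.436% and 1.45% of all 688 sequences. Of the 21, 14 were lower in both states, against 29.5% of all, and the median was -0.17. Its names pointed in both directions: HERVL_40 had 175 and 150 counts in clone 1 and 114 and 113 in clone 2 (0.55 ± 0.15, adjusted p = 0.170). MLT2B2 differed by -0.45 ± 0.10 (adjusted p = 0.131). The larger lists had medians close to that of all sequences: 0.02 for 148 other LTR names, 0.05 for 114 MER names of LTR type, 0.01 for 42 MaLR names, 0.01 for 73 mammalian L1 names and 0.07 for 58 DNA transposon names. In those 5 lists together 1 sequence passed, LTR3A. Of 63 other names of endogenous retroviruses, mostly internal sequences, 2 were higher and 2 lower, with a median of 0.03, and of 7 further HERVK internal names 0 passed.

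**Figure D5:**
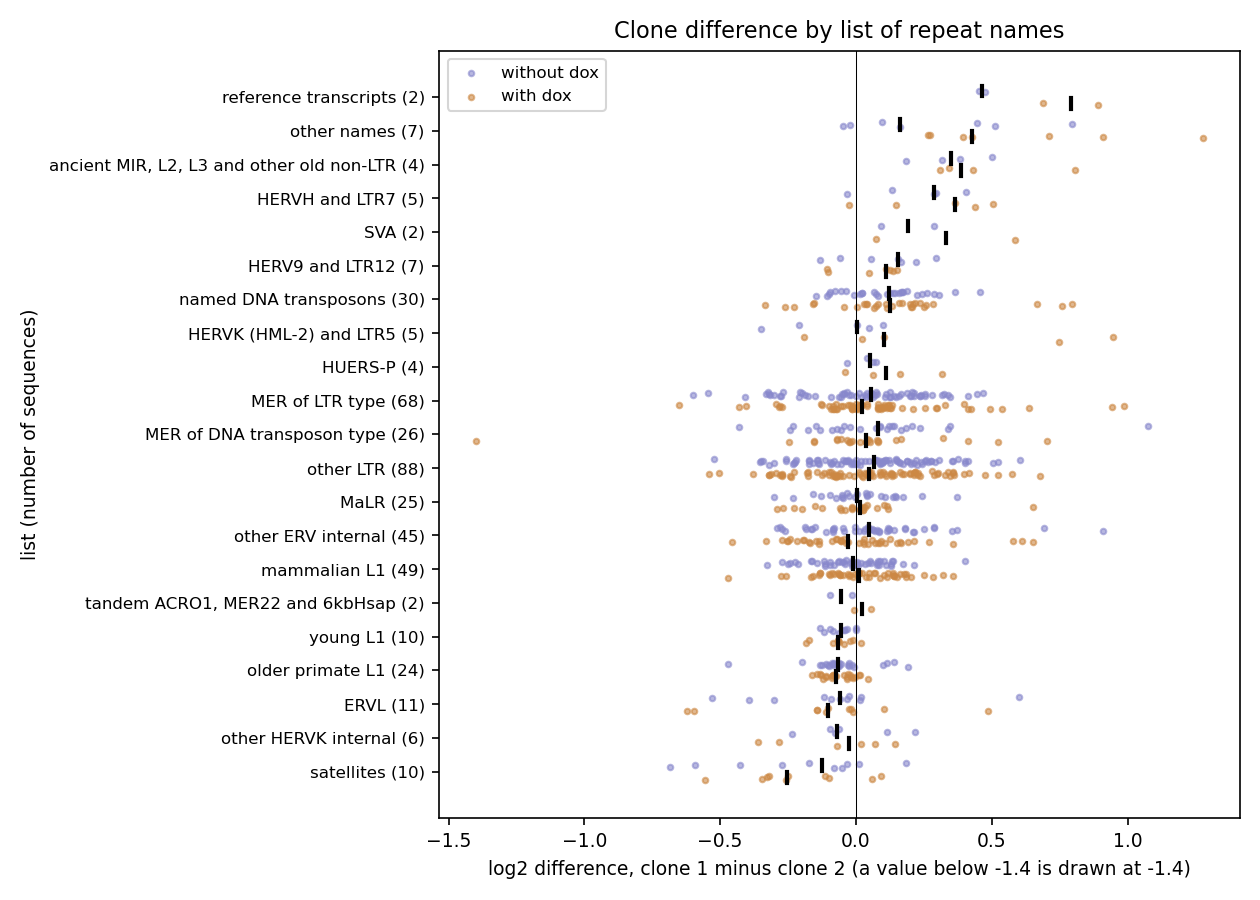
Log2 difference between the clones for each sequence with a mean of at least 100 counts, by list of names, in blue without and in orange with dox, with black bars at the medians. The reference transcripts ACTB and GAPDH, the old non-LTR names and HERVH with LTR7 had medians above 0.25 in both dox states, and satellites had medians below 0 in both.

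The sequences whose clone difference varied most between the dox states were picked out after their values were seen. The clone difference moved by at least 0.5 between the states for 26 of the 431 sequences and by at least 1 for 4: MER58A, HERVK, GGAAT and MER66A. MER58A, a DNA transposon, had 328 and 16.02 estimated counts in clone 1 without and with dox and 154 and 384 in clone 2. In PB cells MER58A had 0 CPM without and 27.1 CPM with dox, on the scale over all 6 libraries. Near relatives of MER58A share its reads. The summed MER58 names had 137 and 64.8 CPM in clone 1 without and with dox, against 99.9 and 129 CPM in clone 2. Their order was thus also opposite in the dox states. The difference common to both states in the edgeR fit with summed names was -0.24 ± 0.33 (adjusted p = 0.793). GGAAT, a simple repeat, had 256 and 515 counts in clone 1 against 237 and 224 in clone 2. Among the clone libraries, clone 1 with dox was the one apart. In PB cells GGAAT was also higher with dox, at 40.8 CPM without and 81.5 CPM with dox on the scale over all 6 libraries. MER66A had 188 and 201 estimated counts in clone 1 against 207 and 107 in clone 2, where clone 2 with dox was the low library.

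The PB libraries, which are not in the fit, give another line to set beside the clones. For all 13 sequences that passed, the mean log2 level of PB cells over both dox states was nearer to clone 2 than to clone 1. That held for 324 of the 431 sequences overall (75.2%). ERVL-B4 was 0.67 lower on the log2 scale in clone 1 than in PB cells and 0.15 lower in clone 2. HSFAU was 1.16 higher in clone 1 and 0.45 higher in clone 2 than in PB cells. LTR7A was 0.35 higher in clone 1 and 0.09 lower in clone 2.

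The 13 calls lay close to the threshold, with adjusted p between 0.032 and 0.047. No call was made without the dox block (smallest adjusted p 0.078), or with TMM factors computed without Alu, ACTB and GAPDH (0.061), and none of the 13 was called with limma on log2(TPM + 1) or log2(TPM + 0.1), where 0 and 2 other sequences were higher and 11 and 15 lower. In fits over 5 libraries that leave out 1 clone library, 2 of the 10 higher (HERVFH19I and LTR3A) and 1 of the 3 lower (ERVL-B4) passed without clone 2 with dox, and 7 and 2 without clone 2 lacking dox. Without clone 1 lacking dox 10 and 1 of them passed, and all 13 did without clone 1 with dox.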

How the data were processed

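RNA was measured in H1 cells by stranded total RNA sequencing after removal of ribosomal RNA, per the labels' protocols. The submitters' processing notes name Salmon 0.13.0, Trimmomatic 0.36 and bcl2fastq 2.17, without the part each had, the index, the options or the genome build. Per the file headers, each deposited table holds an estimated count, which is not normalised, and a TPM value, scaled to a common total over these 1047 sequences alone. Reads that fit several related names were divided between them by estimation.

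Groups were taken from the labels. Estimated counts were rounded and tested with edgeR 4.0.16 (R 4.3.3; TMM, quasi-likelihood test, dox state as a block, 4 libraries, 1 residual degree of freedom, biological coefficient of variation 8.92%). Both states of a clone carry the same clone label under different treatment, and same-dox libraries were paired by design. Differences within a dox state added 0.5 to each count. The standard error is the log2 difference over the root of its F statistic. Nothing says that the libraries came from separate cultures. The edgeR p-values set the clone difference against its unevenness over the dox states, largely pooled over sequences, and not against the spread of separate cultures.

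Lists of repeats go by name patterns, so a list can hold names of another kind, and the list of other endogenous retroviruses holds some LTRs. ACTB and GAPDH were found by accession in the RefSeq annotation of GRCh38.p14, since their names carry a prefix that the written pattern missed. Named sequences are Alu, ACTB and GAPDH, up to 12 sequences per direction with a mean of at least 100 counts, first those past an adjusted p of 0.05 and then by the smaller of their differences in the dox states, the members of the L1, SVA, HERVH, HERVK, HUERS-P and satellite lists, and the leading 2 of other lists; others are said to be chosen later or stand beside a relative. The comparison, members and lists were chosen with earlier results of these data known. Alternatives were other scalings, filters, sample sets, DESeq2 1.42.0, limma 3.58.1 on log2(TPM + 1) and log2(TPM + 0.1), and leaving out each library; depth and intervals stand in the report.

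The script was tested on simulated data, 688 sequences of which 200 were changed. The test of clone 1 against clone 2 recovered 40.3% of changes of 0.5 on the log2 scale, 71.6% of changes of 1 and 97.0% of changes of 2, and 9 of 148 calls were false. The share of changed sequences was set by hand, and it moves the cut-off of the Benjamini-Hochberg adjustment. The simulated counts held no dox effect and no reads shared between names. These rates therefore need not hold for the reported test.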

Additional observations from a re-analysis of the deposited data

Results flagged for a closer look

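In several results the 2 clones went in opposite directions between the dox states, or the clone difference had opposite signs in them. With 1 library per clone and dox state the difference between the states was not tested. The Alu share was 7.10 percentage points higher with dox than without in clone 1 and -1.69 points in clone 2, and that of GAPDH was -0.752 points in clone 1 and 0.0655 points in clone 2. The log2 clone difference with dox minus that without was 1.30 for HERVK and 0.96 for LTR5_Hs, whose signs turned from negative to positive, and -0.19 for LTR5. Among satellites it was -0.29 for ALR2, 0.23 for ALRb, 0.14 for MSR1 and -0.34 for SATR2, each on at most 221 counts per library. It was 0.15 for MER22, -0.11 for HUERS-P2, 0.0935 for HUERS-P3B, -0.0678 for L1PA4 and 0.0181 for L1PA7_5, where the clone difference was near 0 in both states.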

How the results depend on the processing

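The counts of sequences higher and lower in clone 1 (10 and 3) turned most on scaling and on single libraries. They were 0 and 11 with total counts, 0 and 345 with ACTB and GAPDH scaling, 0 and 0 with TMM without Alu, ACTB and GAPDH, 0 and 0 without the dox block, 18 and 5 over all 6 libraries, 5 and 0 with DESeq2, 0 and 11 with limma on log2(TPM + 1) and 2 and 15 on log2(TPM + 0.1). At an unadjusted p under 0.05 there were 105 without Alu, ACTB and GAPDH, 92 without the block, and 28 with DESeq2, whose 5 calls were LTR7A, HSFAU, UHG, ACTB and GAPDH. Leaving out 1 clone library, in fits that keep the PB libraries and assume that a lone sample varies like the others, gave 2 to 32 higher and 4 to 14 lower. With DESeq2 size factors (11 and 4), no filter (11 and 4) and the stricter filter (11 and 3) all 10 higher calls were kept.

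Sequences that differed the same way in both states (5 higher and 2 lower) numbered 0 and 20 with total counts, 0 and 149 with ACTB and GAPDH scaling, 32 and 15 at a size of 0.25, 0 and 0 at a size of 1, and 0 and 44 on log2(TPM + 1). With TPM centred on the median sequence, chosen after seeing the data, 3 were higher. The median sequence shifted by -0.39 with total counts, -0.61 with ACTB and GAPDH scaling and -0.57 with log2(TPM + 1). Relative to it, none of the 13 sequences that passed changed sign under any alternative run. They were picked on the same libraries for a difference common to both states, so a steady sign was largely built in. Of 70 other named sequences 17 changed sign, among them HERVK (-0.36 to 0.92), LTR5_Hs (-0.17 to 0.68), HERVH (-0.24 to 0.16) and MER58A (-4.91 to 1.49). Some of the 70 were picked because their difference varied between the states, so these counts do not compare like with like. Without the counts of the other 2, the mean gap was 5.36 points for ACTB and 6.12 for GAPDH. As shares of TPM, where both take a smaller part of the total, it was 0.0575 and -0.025 points. The last was of opposite sign and a mean of 0.181 without and -0.232 with dox. The cause of these shifts was not tested. Sequences under 100 counts, such as MIRb, rest on few reads and on the division between relatives.

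The dox state is the pairing in this design and stands as the block in the reported fit.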
